A study of Mus musculus with 5 samples.

Results

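Processed pseudogenes are copies of messenger RNAs that were reverse transcribed and inserted elsewhere in the genome. They lack the introns of the gene they were copied from, the parent gene, and usually carry no promoter of their own, so that most are silent unless they landed in or near a transcribed region. Copies of abundant housekeeping messages are the most common, and a young copy can be almost identical to its parent, which makes short reads hard to assign to one or the other.

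The 207 genes described here are the expressed processed pseudogenes of mouse myoblasts other than those named after ribosomal proteins. They were chosen by their annotation and by their measured values. A member is annotated in GENCODE M21 as processed_pseudogene (186 genes) or transcribed_processed_pseudogene (21 genes), has a symbol that does not start with Rpl or Rps, and reached 50 normalized counts in at least 1 of the 5 samples. Ftl2-ps, Ftl1-ps1, Eno1b and BC002163 were left out by name. The table lists 54232 genes, of which 9630 carry one of those annotations. At the threshold, Gm12854 was just inside with a highest value of 50.1 normalized counts, and Gm12715 was just outside with 49.7.

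RNA came from primary myoblasts, muscle precursors isolated from mouse leg muscle with magnetic beads, after 72 h in differentiation medium. The groups were WT (n = 3) and Elmo2EID/EID (n = 2), the latter homozygous for a knock-in that changes 1 amino acid of the engulfment and motility adaptor ELMO2 so that it favours an open state. The study kept its mice on a mixed C57BL6 and 129SV background, and took myoblasts from animals 6 to 8 weeks old. A normalized count is the number of uniquely aligned reads of a gene divided by a size factor of the sample. The read numbers behind the values were recovered, with totals from 35021856 to 49381544 per sample, and 3 reads or fewer were taken as the floor (2.65 to 3.73 normalized counts by sample). The study states that primary cells typically came from independent mice but does not tie each of these samples to an animal, so p-values measure the spread between these samples, which may be technical in part. Elmo2 itself was at 1642, 1539 and 1659.5 against 1441 and 1327 normalized counts, here and below in the order WT samples 1 to 3 against Elmo2EID/EID samples 1 and 2, and since the knock-in alters a codon this does not check the labels. All 7 myogenic markers checked, Myod1, Myog and Mymk among them, were present in every sample and none was called different. The summed level of 6 endothelial markers ran from 150.3 to 817 normalized counts in WT and was 2094 and 3284 in Elmo2EID/EID, with none at the floor in every sample and none of the 6 called. Those of 5 fibro-adipogenic markers ran from 189.6 to 1407 in WT and were 1037 and 1106 in Elmo2EID/EID, and of 4 macrophage markers they did not exceed 58.1, with Ptprc at the floor throughout. The summed level of 4 Schwann cell markers was 94.5, 43.7 and 232 against 292 and 180.2, with none called. That of 4 pericyte markers was 8612, 9096 and 7379 against 7901 and 8542, with 1 of them, Rgs5, called lower and Kcnj8 at the floor throughout. The part of these other cells in the values below was not tested, and in bulk RNA fewer cells of a type and less RNA per cell cannot be told apart.

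The stretches below show how close copy and parent are where the results turn on them. Parents were assigned by sequence, as the best blastn match among GENCODE M21 protein-coding transcripts. Ties in match score went to the gene with the highest WT mean. Each stretch is 90 bases, lies inside the coding part of the parent message and holds the highest number of differing bases of any such gap-free window. Capitals mark the bases at which copy and parent differ. Positions are on GRCm38, and the sequences are GENCODE M21 transcript sequences. The first 3 pairs are copies at the floor in WT, the next 2 are the 2 members with the highest Elmo2EID/EID means and the last is a copy that stood out in a single library.
Gm20305, chr1:180854366-180854455, minus strand: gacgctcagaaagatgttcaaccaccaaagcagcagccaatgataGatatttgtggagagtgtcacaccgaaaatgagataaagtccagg
Polr2k, same stretch of its transcript: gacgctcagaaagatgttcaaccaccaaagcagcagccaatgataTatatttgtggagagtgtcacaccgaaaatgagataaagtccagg
Gm6334, chr8:4778062-4778151, plus strand: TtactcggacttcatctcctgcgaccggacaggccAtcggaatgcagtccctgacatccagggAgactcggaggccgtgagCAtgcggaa
Pkig, same stretch of its transcript: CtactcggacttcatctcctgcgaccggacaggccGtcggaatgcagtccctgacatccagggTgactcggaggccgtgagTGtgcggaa
Gm45315, chr7:12797771-12797860, plus strand: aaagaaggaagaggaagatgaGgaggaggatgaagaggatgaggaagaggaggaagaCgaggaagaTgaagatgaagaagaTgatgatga
Hmgb1, same stretch of its transcript: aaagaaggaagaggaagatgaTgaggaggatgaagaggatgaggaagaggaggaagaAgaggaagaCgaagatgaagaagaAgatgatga
Gm15459, chr5:5783398-5783487, minus strand: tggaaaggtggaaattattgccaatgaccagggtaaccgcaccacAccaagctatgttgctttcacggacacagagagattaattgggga
Hspa8, same stretch of its transcript: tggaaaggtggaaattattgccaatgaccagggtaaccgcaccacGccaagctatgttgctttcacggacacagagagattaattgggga
Gm8730, chr8:102865345-102865434, minus strand: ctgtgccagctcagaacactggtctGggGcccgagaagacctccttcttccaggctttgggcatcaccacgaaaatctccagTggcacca
Rplp0, same stretch of its transcript: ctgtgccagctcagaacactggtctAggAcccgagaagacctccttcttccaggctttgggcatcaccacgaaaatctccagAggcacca
Atp6v0c-ps2, chr6:37806151-37806240, plus strand: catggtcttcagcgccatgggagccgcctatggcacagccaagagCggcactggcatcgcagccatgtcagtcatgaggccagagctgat
Atp6v0c, same stretch of its transcript: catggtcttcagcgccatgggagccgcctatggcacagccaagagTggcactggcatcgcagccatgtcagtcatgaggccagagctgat

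Counted from 1 at the left end, with the parent's base first, Gm20305 differs from Polr2k in this window by T46G alone, Gm15459 from Hspa8 by G46A and Atp6v0c-ps2 from Atp6v0c by T46C. Over its whole 177 bases Gm20305 has 1 mismatch to Polr2k, and over its 1941 bases Gm15459 has 5 to Hspa8. Gm6334 differs from Pkig at 5 of these 90 bases and at 8 of its 228.

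The 207 members held between 0.0632% and 0.0662% of all reads in the WT samples and between 0.12% and 0.131% in the Elmo2EID/EID samples. Gm15459, a copy of the chaperone gene Hspa8, and the 4 copies of the ribosomal stalk gene Rplp0 made up 67.5% and 53.1% of the excess over the WT mean in Elmo2EID/EID samples 1 and 2, in normalized counts. Without these 5 the shares were 0.062% to 0.0648% in WT and 0.0815% to 0.0942% in Elmo2EID/EID. The 159 members that were not called held 0.059% to 0.0618% in WT and 0.0609% to 0.0726% in Elmo2EID/EID, which overlap. Selection on a high value in any sample, Elmo2EID/EID included, also raises the members' share there. On the log2(normalized count + 1) scale, 48 of the 207 members were called higher in Elmo2EID/EID by limma, with p-values Benjamini-Hochberg (BH) adjusted across the 18156 genes tested, where 1.09% of genes were called higher. None was called lower, against 1.14% of all genes. At an unadjusted p under 0.05, 64 members were higher and 6 lower by limma, beside 6.93% and 8.31% of all genes. EdgeR called 51 higher and 0 lower, where it called 1.12% and 1.13% of all genes. DESeq2 called 58 and 0, against 2.27% and 3.06%, and both included all 48 members called by limma. These counts partly follow from the choice of members. A copy could enter through Elmo2EID/EID alone, as 65 did, 36 of them called higher. Only WT samples brought in 11, and 131 reached the threshold in both genotypes. Of the 142 that a WT sample brought in, 12 were called higher and 0 lower.

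The values below used the same samples as the choice of members and are a description. The median log2 fold change of the members was 0.16, and 0.01 over all genes tested. It was also 0.16 with the copy that had 0 reads in every WT sample set at its lower bound. In 68 members the Elmo2EID/EID mean was at least 2 times the WT mean, and in 0 the reverse held. Both Elmo2EID/EID samples lay above all WT samples in 76 members and below all of them in 16, where such a separation was seen in 16.7% and 15.9% of all genes tested. Among the 142 members that a WT sample brought in, the median log2 fold change was 0.03, 16 had an Elmo2EID/EID mean at least 2 times the WT mean and 0 the reverse, and the samples were separated upward in 27 and downward in 16. Among the 131 at the threshold in both genotypes the median was 0.04, with 16 and 0 past 2 times, 27 separated upward and 13 downward, and 12 called higher. The 159 members that were not called had log2 fold changes from -0.62 to 3.29.

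**Figure D1:**
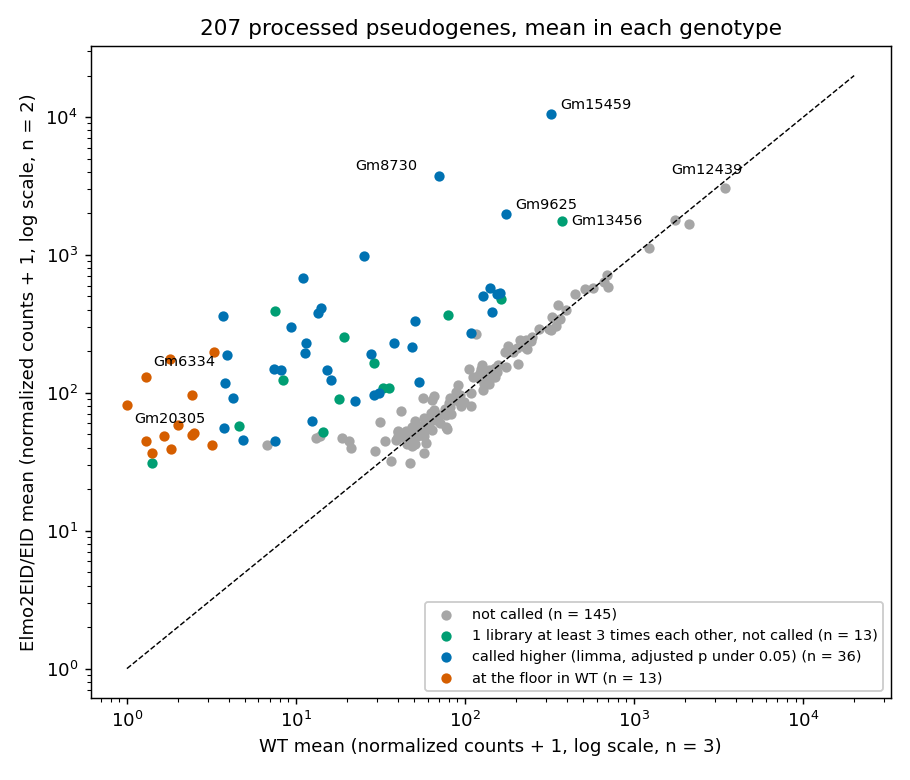
Mean of each of the 207 members in WT (horizontal axis, n = 3) and Elmo2EID/EID (vertical axis, n = 2), in normalized counts plus 1 on log axes, with the line of equal means. Points far from the line lie above it, and no member lies as far below it. Gm15459 and Gm8730 have the highest Elmo2EID/EID means. Orange points are the 13 copies at the floor in WT, 12 of which were also called higher. Being picked for low WT values, they are called in part by that choice. Of these calls, only that of Gm20305 stayed whichever sample was left out. That of Gm6334 was lost without Elmo2EID/EID sample 2, and each of the rest without sample 1 and also without sample 2.

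At the floor in 1 genotype were 13 members, each with 3 reads or fewer in all 3 WT samples and more than 3 in both Elmo2EID/EID samples. No member was at the floor in Elmo2EID/EID and above it in every WT sample. Among the 12805 genes that reached 50 normalized counts in a sample, 0.164% were at the floor in WT in this way and 0% in Elmo2EID/EID. The rule uses the values it describes, so they are given without a test.

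Gm45315 on chromosome 7 and Gm8423 on chromosome 8 are copies of Hmgb1, which encodes a DNA-bending chromatin protein. Gm45315 had 0, 1.12 and 1.24 normalized counts across WT and 229.8 and 117 across Elmo2EID/EID. For Gm8423 the values were 0.884, 0 and 0 against 56.3 and 30.5. In both Hmgb1 copies Elmo2EID/EID sample 1 was the higher of the pair. Gm6334 on chromosome 8, a copy of the protein kinase A inhibitor gene Pkig, had 0.884, 0 and 0 normalized counts across WT and 92.1 and 167 across Elmo2EID/EID, with sample 2 the higher.

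Gm14287 on chromosome 2 is a 117-base fragment identical over the aligned part to Ywhaz, which encodes the zeta 14-3-3 protein, an adaptor that binds phosphorylated proteins. Its values were 1.77, 0 and 2.49 normalized counts across WT and 99.3 and 93.2 across Elmo2EID/EID. Gm20305 (ENSMUSG00000103979, chr1:180854282-180854458), within an intron of Sde2 on the opposite strand, copies Polr2k, a small subunit shared by the nuclear RNA polymerases. It had no read in any WT sample but reached 75.1 and 86.1 in Elmo2EID/EID, at least 21.6-fold higher when the floor of 3 reads per library stands in for WT. It was the only floor member with no WT read at all.

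Gm13410 on chromosome 2, a copy of the messenger RNA decay helicase gene Ddx6, had 1.77, 0 and 1.24 against 67.1 and 48.4 normalized counts (WT against Elmo2EID/EID). Gm18119 on chromosome 10, from the large-subunit ribosomal protein gene Rpl15, had 0.884, 1.12 and 2.49 against 51.9 and 48.4. Gm4864 on chromosome 12, from the histone deacetylase gene Hdac1, had 0.884, 1.12 and 0 against 51.9 and 43.0. These copies were within 1.5 times between the Elmo2EID/EID samples. Gm6733 on chromosome 11, in an intron of Zzef1 on the same strand and from the signal recognition particle receptor gene Srpr, had 1.77, 1.12 and 3.73 against 59.0 and 22.4. For Gm13123 on chromosome 4, a copy of the translational stress regulator gene Gcn1l1, the values were 0, 0 and 2.49 against 25.0 and 51.1. Gm45246 on chromosome 8, from the splicing regulator gene Hnrnpl, had 0, 0 and 1.24 against 20.6 and 50.2. In these 3 the Elmo2EID/EID samples were over 2 times apart, in either order.

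Tma7-ps on chromosome 1, from the translation machinery gene Tma7, met the rule by a narrow margin. Its values were 1.77, 0 and 2.49 against 3.58 and 94.1 normalized counts, and the first Elmo2EID/EID value stands for 4 reads. Gm15610 on chromosome 5, another Tma7 copy, missed the rule because sample 1 had 1 read, with 0, 0 and 1.24 against 0.894 and 59.2. For both Tma7 copies the signal was thus in Elmo2EID/EID sample 2 alone. Just above the floor in WT were Eif3s6-ps2 on chromosome 18, from the initiation factor gene Eif3e, with 3.53, 3.37 and 1.24 against 348 and 368, and Cox6c2 on chromosome 12, from a cytochrome c oxidase subunit gene, with 6.18, 1.12 and 2.49 against 99.3 and 82.5. Eif3s6-ps2 and Cox6c2 were chosen after their values were seen.

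**Figure D2:**
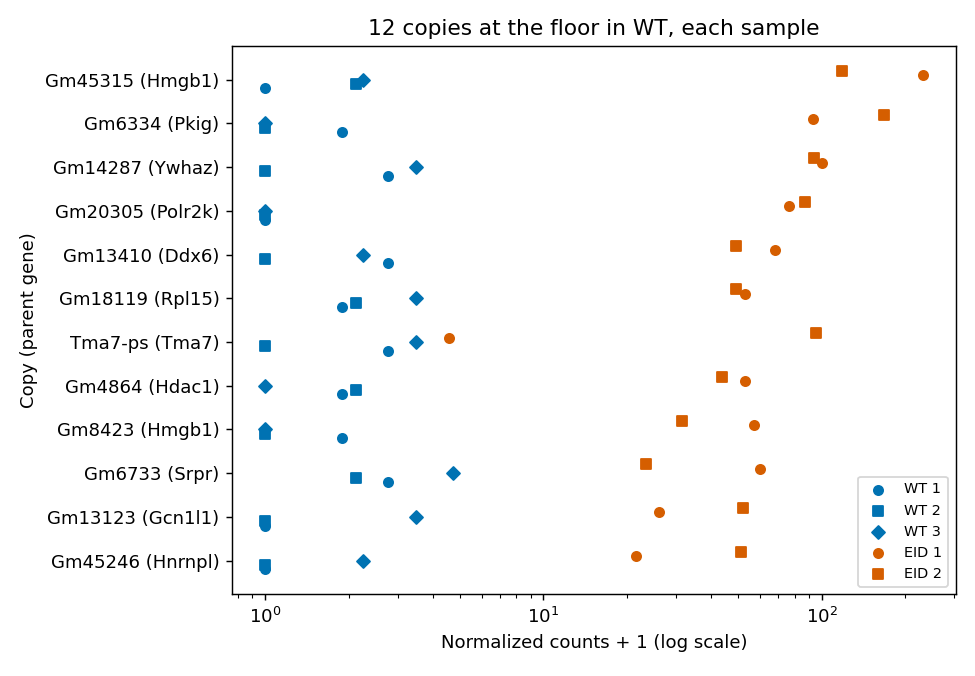
Normalized counts plus 1 (log axis) of 12 of the 13 copies at the floor in WT, with the parent gene in parentheses. Blue symbols are the WT samples and orange symbols the Elmo2EID/EID samples, and every copy but Tma7-ps has a wide gap between them, while for Tma7-ps sample EID 1 lies near the WT samples.

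By chromosome, the floor copies were spread over 9 chromosomes, with 3 on chromosome 8, 2 each on chromosomes 1 and 2, and 1 each on chromosomes 3, 4, 7, 10, 11 and 12. The 207 members lay on 20 chromosomes, from 4 on chromosomes 14 and 19 to 19 on chromosome 2. The 48 called higher lay on 17, with 6 of the 10 members on chromosome 8, 5 each on chromosomes 1, 2 and 3, and none on chromosomes 9, 19 or X. Their parents were on fewer chromosomes. All 48 had a parent. The 40 distinct parents lay on 12 chromosomes, with 9 on chromosome 7, 6 on chromosome 4, 5 each on chromosomes 14 and 15 and 4 on chromosome 5. No copy called higher lay on the chromosome of its parent, and 9 of the 199 members with a parent did. Each count of calls on a chromosome stands beside 48 of 207 members and 1.09% of all genes, with the same selection on level. Nothing particular to a chromosome is read from these counts.

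Some of these parents were neighbours. On chromosome 15, Cox6c, Polr2k, Pabpc1 and Ywhaz start between 35.9 and 36.8 Mb, and Eif3e follows at 43.3 Mb, while Rpl30, at 34.4 Mb, had a copy that was not called. The 6 copies of these parents that were called higher were within 1.5 times between the Elmo2EID/EID samples. On chromosome 5, Rplp0 and Gcn1l1 both start at 115.6 Mb and Wsb2 at 117.4 Mb, and the copies of all 3 were higher in sample 2 than in sample 1. Pebp1, at 117.3 Mb between them, had a copy that was not called. Wsb2-ps, from the ubiquitin ligase adaptor gene Wsb2, had 6.18, 6.73 and 8.70 against 94.8 and 195 normalized counts. These stretches were picked after the values were seen, and the grouping was not tested.

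**Figure D3:**
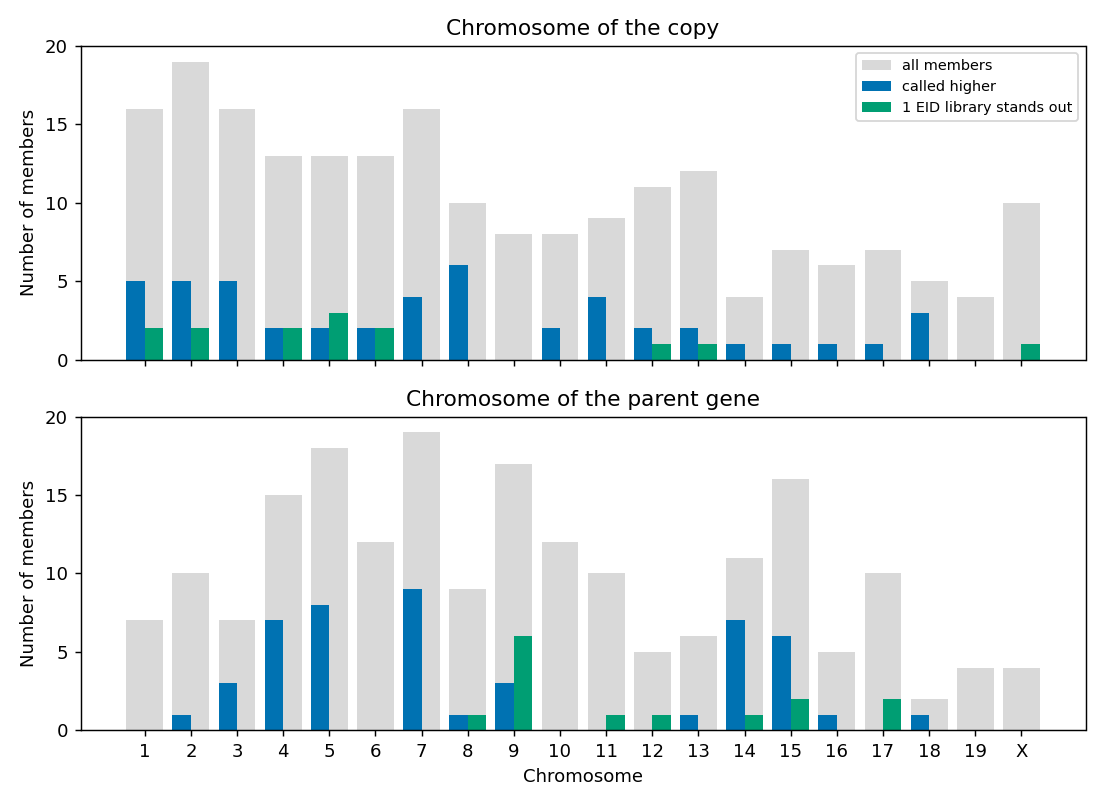
Number of members by chromosome of the copy (upper panel) and of the parent gene (lower panel, where a parent counts once for each of its copies). Grey bars are all members, blue bars those called higher by limma and green bars those in which 1 Elmo2EID/EID sample was at least 3 times each other sample. Called copies most often had a parent on chromosome 7, with 9, and on chromosome 5, with 8, of which 4 are copies of Rplp0 and 2 of Hmgb1. These 2 chromosomes also held the parents of the most members, 19 and 18.

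By parent family, the largest named group was copies of ribosomal protein genes that do not carry an Rpl or Rps symbol, 38 members from 29 parents, of which 10 were called higher and 2 were at the floor in WT. Translation factors gave 15 members with 3 higher, mitochondrial proteins 14 with 2 higher, and proteasome and ubiquitin genes 12 with 2 higher. Of 11 copies of glycolysis genes 3 were higher, of 8 chaperone copies 1, and of 6 copies of RNA-binding and splicing genes 3, 2 of these at the floor in WT. The list of HMG proteins, histones, their chaperones and nucleolar proteins gave 5 members, 2 of them higher and both of them the Hmgb1 copies at the floor in WT. Neither the 6 tubulin and microtubule copies nor the 3 actin cytoskeleton copies held a call. Of 4 copies of antioxidant and sulfur metabolism genes 1 was higher. Both copies of Ywhaz and 1 of 2 copies of S100a11 were higher. The other 73 members came from 69 parents of mixed function and held 18 calls, the 2 copies of Hdac1 among them, and the 8 with no parent found held none. Each family share stands beside 1.09% over all genes and the same selection on level, so nothing particular to a family is read from it.

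Among members whose mean was 50 or more in each genotype, the 5 largest increases were in copies of 4 genes. Gm15459 (ENSMUSG00000100801, chr5:5781615-5783555) matches the constitutive heat shock chaperone gene Hspa8 over all of its 1941 bases. It had 332, 341 and 296 normalized counts across WT and 13252 and 7643 across Elmo2EID/EID. The Elmo2EID/EID mean was 32.3 times the WT mean, a log2 difference of 4.96 ± 0.21 (SE, limma BH-adjusted p = 2.19e-04). The gene model overlaps an exon of Gm26825 on the opposite strand, and reads were counted by strand. Per kilobase of exon it went from 166 normalized counts in WT to 5383 in Elmo2EID/EID, while Mylf-ps, not called, stood at 4129 and 4247.

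Rplp0, which encodes the protein of the ribosomal stalk base, had 4 member copies, and all 4 were called higher. Gm8730 (ENSMUSG00000063696, chr8:102864845-102865798) had 80.4, 62.8 and 63.4 normalized counts across WT and 2313 and 5181 across Elmo2EID/EID, a log2 difference of 5.64 ± 0.32 (SE, limma BH-adjusted p = 7.06e-04). Gm9625 on chromosome 13 had 182, 172 and 168 against 1232 and 2699 normalized counts, a log2 difference of 3.38 ± 0.30 (SE, limma BH-adjusted p = 0.00377). The smaller copies Gm6278 on chromosome 16 and Gm14165 on chromosome 2 had 13.3, 15.7 and 8.70 against 262 and 492 and 7.95, 10.1 and 1.24 against 85.9 and 212. Of the 4 calls, that of Gm14165 was lost without WT sample 1 or 2, without either Elmo2EID/EID sample and without limma's trend of spread with level, that of Gm6278 without Elmo2EID/EID sample 2, and that of Gm9625 without the trend. In all 4 the value of Elmo2EID/EID sample 2 was 1.88 to 2.47 times that of sample 1, and both were above every WT sample. These copies carry between 12 and 25 mismatches to Rplp0, so reads over those bases differ between copies and parent.

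The other 2 in this list were Gm4202 on chromosome 3, a copy of Ywhaz, with 142, 139 and 137 against 595 and 548 normalized counts, and Gm11478 on chromosome 11, a copy of the large-subunit gene Rpl13a in an intron of Vmp1 on the same strand, with 147, 125 and 107 against 538 and 474. Their log2 differences were 2.03 ± 0.11 (SE, limma BH-adjusted p = 6.29e-04) and 2.01 ± 0.16 (SE, limma BH-adjusted p = 0.003). Each lay above WT with a small gap between the Elmo2EID/EID samples. The call of Gm11478 was lost without either of them. Of the 119 members with such means, 10 were called higher and 0 lower, beside 1.09% and 1.14% of all genes.

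The 5 largest decreases in the same set did not pass the test. AA414768 on the X chromosome had 83.1, 72.9 and 74.6 against 52.8 and 53.8 normalized counts, Gm9385, from Rpl24, 107, 116 and 102 against 75.1 and 84.3, and Gm3699, from Rpl41, 68.0, 88.6 and 70.9 against 55.4 and 55.6. For 2810025M15Rik, with no parent found, the values were 229.7, 192 and 194 against 168 and 152. Gm10736, identical over its 78 bases to Rpl41, which encodes the shortest ribosomal protein, had 2082, 2353 and 1906 against 1791 and 1572. Their log2 fold changes ran from -0.52 to -0.33, with limma BH-adjusted p from 0.216 to 0.386. In all 5 both Elmo2EID/EID samples lay below the WT samples. Gm10736 was called lower only with the replicate number as a block and crossed numbers paired, a setting added after seeing the data.

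Most of the abundant copies were not called. Gm12439, matched over 50% of its length to the glyoxalase gene Glo1, had 3601, 3718 and 3059 normalized counts across WT and 3010.3 and 3062 across Elmo2EID/EID. Mylf-ps, from the fast muscle myosin light chain gene Myl1, had 1701, 1717 and 1796 against 1748 and 1829. Tpt1-ps3, identical over its 519 bases to the translationally controlled tumour protein gene Tpt1, had 1195, 1353 and 1110.1 against 1153 and 1081. None of the 3 was called, with limma BH-adjusted p from 0.42 to 0.829. Gpx4-ps2, from the lipid peroxide reductase gene Gpx4, had 622, 709 and 735 against 763 and 663. Vcp-rs, from the unfolding ATPase gene Vcp, had 408, 405 and 374 against 410.5 and 386, and Gm15920, from the respiratory complex I gene Ndufa12, 541, 579.9 and 600.4 against 571 and 576. Gm7964, from Hnrnpk, Gm4204, from the histone chaperone gene Nap1l1, and Gm5620, from Tuba1b, were not called either. Gm1840, a copy of the glycolytic enzyme gene Gpi1 with 157, 139 and 132 against 315 and 451, and Gm7665, from the calcium-binding protein gene S100a11 with 50.4, 56.1 and 51.0 against 105 and 134, were higher, with log2 differences of 1.40 ± 0.18 (SE, limma BH-adjusted p = 0.0167) and 1.16 ± 0.20 (SE, limma BH-adjusted p = 0.0388). The call of Gm7665 was lost whichever sample was left out, with the replicate number as a block, whether equal or crossed numbers were paired, and without the trend. That of Gm1840 was lost without WT sample 1 or 2, without Elmo2EID/EID sample 2, under the block of equal numbers and without the trend.

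The 2 Elmo2EID/EID samples were not alike across the members. Of the 48 called higher, 31 were within 1.5 times between them, 11 were over 1.5 times higher in sample 2 and 6 in sample 1. A further set of copies was high in 1 library alone. In 14 members 1 library was at least 3 times each other library, 13 in sample 2, 1 in sample 1 and none in WT. Such a pattern held for 0.273% of the 12805 genes that reached 50 normalized counts, with 30 in sample 2, 3 in sample 1 and 1 each in WT samples 1 and 2. This set was defined after the values were seen, and none of its 14 members was called by limma.

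Gm13456 on chromosome 2, from the elongation factor gene Eef1a1, had 419, 349 and 349 normalized counts across WT and 377 and 3125 across Elmo2EID/EID. Gm11942 on chromosome 4, best matched to the predicted protein-coding gene Gm10073, had 8.84, 5.61 and 4.97 against 4.47 and 783. Atp6v0c-ps2 on chromosome 6, from a proton channel subunit gene of the vacuolar ATPase, had 76.0, 79.6 and 78.3 against 68.9 and 658. In each of these, sample 1 was near the WT values and sample 2 far above them. Gm9825, from the exon junction factor gene Rnps1, had 19.4, 20.2 and 14.9 against 30.4 and 475, Gm8210, from Rpl29, 7.95, 7.85 and 6.22 against 6.26 and 238, and Gm5869, also from Eef1a1, 24.7, 29.2 and 29.8 against 31.3 and 296. Gm6472 on the X chromosome, from Rps7, was the reverse, with 166, 175 and 145 against 811 and 141.

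**Figure D4:**
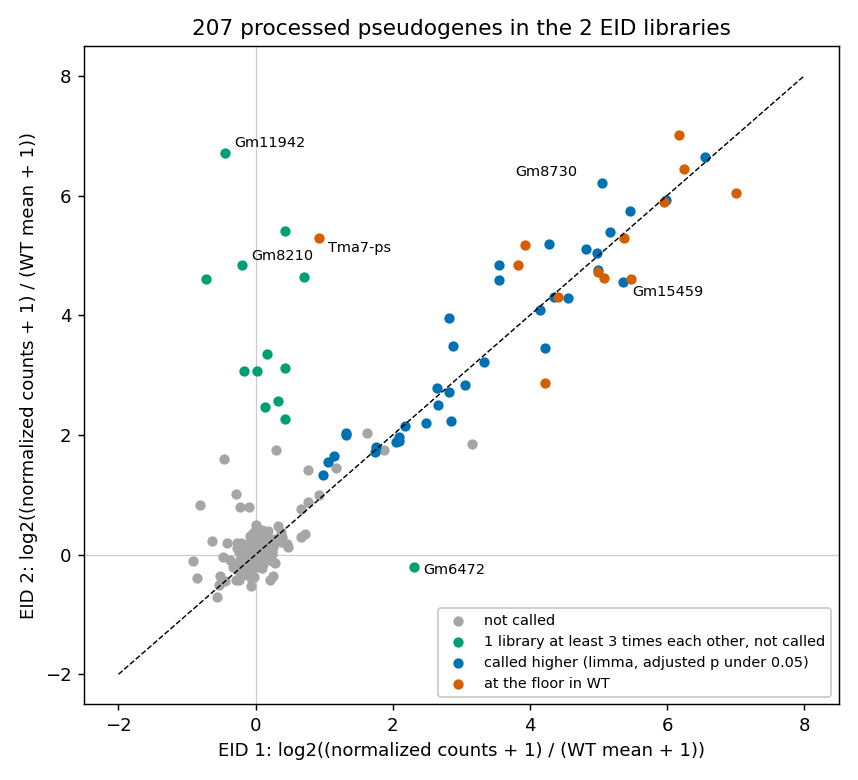
Each of the 207 members in Elmo2EID/EID sample 1 (horizontal axis) and sample 2 (vertical axis), as log2 of the normalized count plus 1 over the WT mean plus 1, with the line of equal values. Most copies called higher lie along the line, while 13 copies, Gm11942, Gm8210 and Tma7-ps among them, lie much higher for sample 2 than for sample 1, and Gm6472 shows the reverse.

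The parents were not used to choose the members, and their own rows were tested in the same fit. Where genes tied as best match, the one with the highest WT mean was taken as the parent. In those cases the choice used WT values tested here, which can tilt parents toward being lower in Elmo2EID/EID. The part of such ties in the counts below was not tested. Of 171 parents, 167 were tested, 7 were called lower and 1 higher, beside 1.14% and 1.09% of all genes. Copies called higher came from 40 parents, of which 6 were called lower and 1 higher. In 21 of those 40 both Elmo2EID/EID samples lay below all WT samples, and in 32 of the 130 tested parents of copies not called, beside 15.9% of all genes. A parent can stand in both groups when it has several copies. The median log2 fold change of the parents was -0.11 for the copies called higher and -0.04 for the others.

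The 7 parents called lower were Polr2k, Psmb5, Rplp0, Hdac1, Pcnp, Pdcd5 and Rpl30. None of the 7 stayed called without Elmo2EID/EID sample 2 or without the trend, and without sample 1 only Polr2k did. Leaving out 1 WT sample lost Psmb5, Rplp0, Pcnp or Pdcd5, the replicate block lost Polr2k, Psmb5, Pcnp and Pdcd5, and with no filter on low values Psmb5, Rplp0 and Pdcd5 were lost. Polr2k had 338, 412 and 383 against 153 and 109 normalized counts (WT against Elmo2EID/EID), a log2 difference of -1.53 ± 0.18 (SE, limma BH-adjusted p = 0.00904). Psmb5, the catalytic proteasome subunit gene whose copy Gm3375 went from 8.84, 11.2 and 9.94 to 698 and 671, had 4108, 4449 and 4217 against 3059.5 and 3118, a log2 difference of -0.46 ± 0.06 (SE, limma BH-adjusted p = 0.0195). Rplp0 had 38944, 38482 and 32736 against 22704 and 15811, with -0.95 ± 0.16 (SE, limma BH-adjusted p = 0.0375). Its lower Elmo2EID/EID value was in sample 2, the sample in which all 4 of its copies were higher.

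Hdac1 had 1066, 976 and 966 against 601 and 589.9 normalized counts, a log2 difference of -0.75 ± 0.08 (SE, limma BH-adjusted p = 0.00759), beside its copies Gm4864 and Gm10093, the latter with 15.9, 16.8 and 12.4 against 132 and 113. Pcnp, a nuclear protein gene, had 1749, 1705 and 1704 against 1154 and 1140.3, and its copy Gm7887 32.7, 31.4 and 47.2 against 239.7 and 215. For the cell death gene Pdcd5 the values were 1669, 1855 and 1865 against 1333 and 1104 and for Pdcd5-ps, identical to it over 381 bases, 148, 163 and 167 against 399 and 653. Rpl30 had 6511, 6566 and 5455 against 2604 and 3087, and its copy Gm12191, with 38.0, 31.4 and 22.4 against 59.0 and 61.9, was not called. The parent called higher was Eno1b, an enolase gene annotated as protein coding and left out of the members by name, with 6.18, 10.1 and 6.22 against 1028 and 929, the best match of Gm5855. Eno1b was itself among the copies left out, so it is a parent here only by the blastn rule. Its rise is not read as that of a source gene, and the 1 sum called higher below is Eno1b with Gm5855.

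Other parents moved less, or not evenly. Hspa8 had 57329, 55054 and 51765 against 34563 and 48068 normalized counts, lower in sample 1 where Gm15459 was higher, with a log2 difference of -0.42 ± 0.14 (SE, limma BH-adjusted p = 0.217). Pkig had 10511, 11138 and 10403 against 8014 and 4233, lower in sample 2 where Gm6334 was higher. Hmgb1 had 2850.3, 2806 and 2699 against 1789 and 2218, lower in sample 1 where both its copies were higher. Neither Pkig nor Hmgb1 was called. Over the 17 called copies whose Elmo2EID/EID samples were over 1.5 times apart, the parent was lower in the sample in which the copy was higher for 10. Among the 14 copies that stood out in 1 library, which came from 11 parents, this held for 12. For 8 of the 14 the parent was lower there than in every other library, WT included. Copies of the same parent share these values, so the counts are not over independent cases.

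Parent and member copies were also added together. A copy chosen for a high Elmo2EID/EID value raises the sum there by construction, so a smaller difference of the sum than of the parent is a description. In the fit on the sums, 2 of the 171 sums were called lower and 1 higher, where 1.01% and 0.779% of the rows of that table were. The sum of Rplp0 and its copies came to 39227, 38742 and 32977 for WT against 26597 and 24396, a log2 difference of -0.53 ± 0.10 (SE, limma BH-adjusted p = 0.0522), against -0.95 for Rplp0 alone. For Psmb5 and Gm3375 the sum changed by -0.18 ± 0.06 (SE, limma BH-adjusted p = 0.252), and for Hspa8 and Gm15459 by -0.09 ± 0.09 (SE, limma BH-adjusted p = 0.712). The sums called lower were Polr2k with Gm20305, at -0.83 ± 0.13 (SE, limma BH-adjusted p = 0.0417), and Rpl30 with Gm12191, at -1.09 ± 0.11 (SE, limma BH-adjusted p = 0.00868). The first was lost whichever sample was left out, under the replicate block, without the trend and with quantile scaling, and the second without either Elmo2EID/EID sample and without the trend. The mean of Hspa8 differed by -13400.3 normalized counts (Elmo2EID/EID minus WT) and that of Gm15459 by 10125. For Psmb5 the difference was -1169 and the gain of the copy 675, and for Rpl30 they were -3331 and 29.8. With the copies of a parent added together, they were -17463 and 5977 for Rplp0 and -407 and 154 for Hdac1. For Polr2k they were -246 and 80.6, for Pcnp -573 and 190 and for Pdcd5 -578 and 367.

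**Figure D5:**
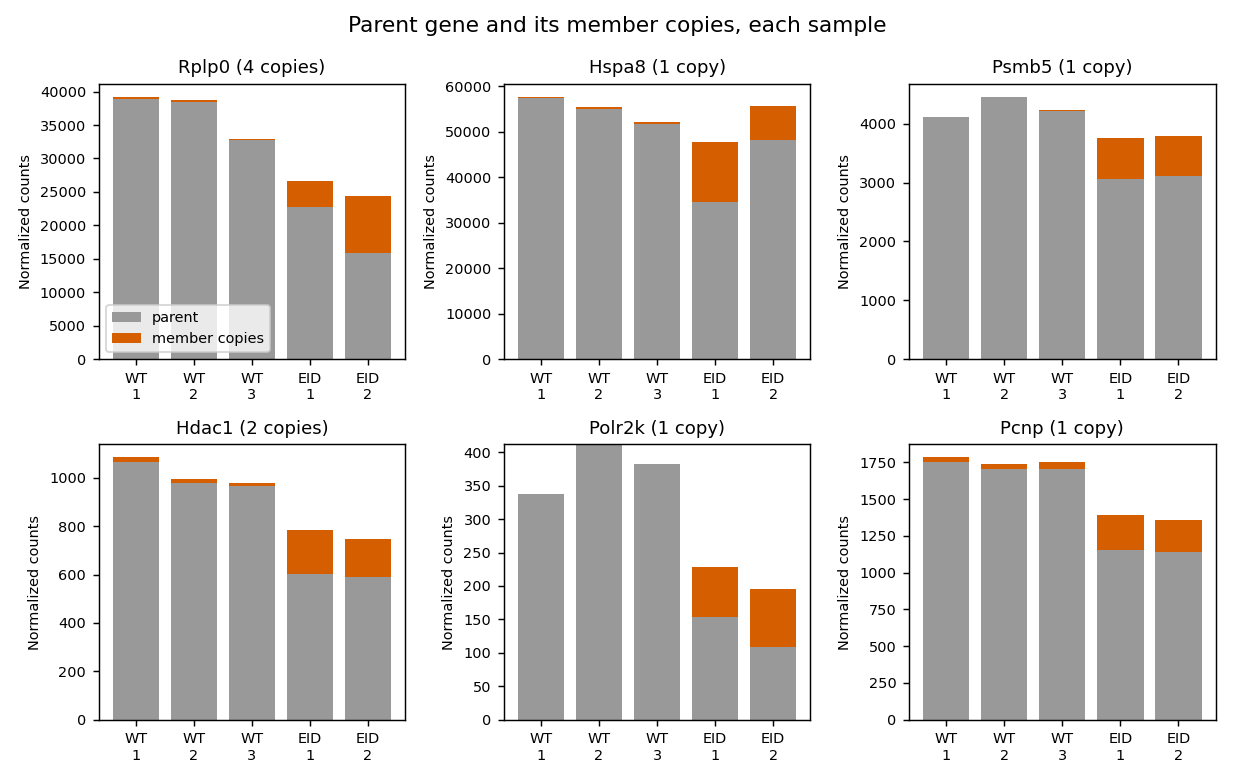
Normalized counts of 6 parent genes (grey) with their member copies stacked on top (orange) in each sample, on linear axes from 0. The orange part is barely visible in the WT samples and takes up a larger part of each Elmo2EID/EID bar, where the grey part is shorter. These 6 parents were picked after the values were seen. Hspa8 was not called, while Pdcd5 and Rpl30, which were called lower, are not shown. For Rpl30 the difference was -3331 normalized counts and the gain of its copy 29.8.

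The likeness of copy and parent is given as a description, since most of the copies called higher entered through Elmo2EID/EID samples alone. For copies called higher the median identity over the aligned part was 97.7% with 15 mismatches, and 99.3% with 4 for copies not called. The ranges overlapped, from 72.8% to 100% and from 77.6% to 100%. The median length was 683 and 633 bases. Reads were 50 bases long, so the share of 50-base windows found in no other annotated transcript tells how much of a copy single reads could mark as its own. Its median was 51.7% in copies called higher and 20.8% in the others, with values from 0% to 100% in both. Because only unique alignments were counted, this share bears on how high a copy could be measured at all. Of the copies whose stretches are printed, Gm20305 and Gm45315 had no window of their own, Gm15459 had 1.16% and Gm6334 96.7%. Pdcd5-ps had none either. These windows, like the lengths, the values per kilobase and the places given next, are those of GENCODE M21, an annotation chosen here, while the study's methods name another Ensembl release for the counting. Levels of a copy and a parent that share most of their windows are therefore uncertain, and what the second read of a pair adds was not tested.

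The place of the copies in the annotation was mixed. Of the 207, 125 lay outside other genes, 30 in an intron and 6 on an exon of a gene on the same strand, and 28 in an intron and 18 on an exon of a gene on the opposite strand. Called higher were 31, 6, 0, 5 and 6 of these, with 1.09% called higher over all genes and the same selection on level. A single exon block made up 191 of the gene models. Of the 26 ribosomal protein pseudogenes left out by their symbols, 8 were called higher and 1 lower by the same fit, and of 810 tested processed pseudogenes below the threshold 20 and 0, beside 1.09% and 1.14% of all genes.

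With 1 Elmo2EID/EID sample left out, the spread within a genotype came from the WT samples alone, and the lone Elmo2EID/EID sample was assumed to vary like them. Without Elmo2EID/EID sample 1, 23 members were called higher, where 0.3% of all genes were. Without sample 2 the count was 12, beside 0.146% of all genes. Of the 48, 11 stayed called whichever sample was left out, Gm15459, Gm8730, Gm9625, Gm4202, Gm20305, Gm3375, Gm10036 and Eif3s6-ps2 among them. Gm10036, a copy of Rpl11 on chromosome 18, had 23.0, 26.9 and 22.4 against 902 and 1048 normalized counts.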

How the data were processed

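Poly-A RNA of the 5 samples was sequenced in 50-base read pairs. The authors aligned the reads to GRCm38 (STAR 2.5.1b), counted unique alignments by strand (featureCounts 1.4.6) and divided them by DESeq2 1.34.0 size factors. These normalized counts, a signal per gene, are the deposited values. Read numbers were recovered by dividing by the smallest positive value of the column, and 100.0% of values came out whole within 0.01 of a read.

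Members and lists were chosen with earlier results of these data known. Values were tested as log2(normalized count + 1) with limma 3.58.1 (lmFit, eBayes with trend, two-sided, BH threshold 0.05), for genes at 5 or more normalized counts in a sample, and 404 genes were called. Recovered reads were tested with edgeR 4.0.16 (408 calls) and DESeq2 1.42.0 (969 calls). The study's methods name an earlier Ensembl release for the counting. The annotation used here was GENCODE M21, which matched 54165 identifiers, and every length, position and biotype is from it. Parents came from blastn 2.17.0 (plus strand, e-value 1e-10, at least 50% of the copy, ties in match score to the gene with the highest WT mean). The fits were tested on simulated counts. R 4.3.3 and Python 3.11.15 were used.

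Named were the members at the floor in 1 genotype (1 of them is not reported here), the 8 highest means, the 5 largest log2 differences in each direction at a mean of 50 or more in each genotype, the most abundant copy of each family and the parents of all of these. Genes named beyond this rule (Rgs5, Pebp1, Pabpc1, Gm15610, Eif3s6-ps2, Cox6c2, Wsb2-ps, Gm6278, Gm14165, Gm3375, Gm10036, Gm10093, Gm7887, Pdcd5-ps, Gm12191, Gm5855, the copies high in 1 library other than Gm13456 and Tma7-ps, and the parents of all these copies) were chosen after their values were seen. Alternatives were other pseudocounts and filters, quantile and equal-total scaling, limma without trend, the replicate number as a block, leaving out each sample, other floors, member thresholds and parent coverage. Across 13769 genes, which are not independent, replicate 1 minus replicate 2 in WT gave a Pearson r of -0.238 with the same difference in Elmo2EID/EID, so equal numbers were not taken as pairs. Replicates of a genotype differed beyond sampling noise (chi-square per degree of freedom 26.6 to 37.8).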

Additional observations from a re-analysis of the deposited data

How the results depend on the processing

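The count of 48 members higher in Elmo2EID/EID stayed within 1.5 times in every fit on all samples except limma without the trend, with 28. A replicate block gave 39. A crossed block, added after seeing the data, gave 49 and also called 1 member, Gm10736, lower. Leaving out 1 sample gave 12 to 44 higher, with the lowest, 12 and 23, without EID sample 2 and without EID sample 1. In those 2 fits the lone EID sample was assumed to vary like WT. With members chosen on WT samples alone, also added after seeing the data, 12 were higher. At thresholds of 20 and 100 normalized counts the members numbered 411 and 106.

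The floor count in WT was 1 at 0 reads and 23 at 10 reads, and 13 to 17 without 1 sample. None was at the floor in EID under any of these. Parents called lower numbered 7 in the main fit, 4 with no filter on low values, 14 by DESeq2 and 0 without the trend. They numbered 3 under the replicate block, 15 with it crossed, and 3, 4 and 6 without WT 1, WT 2 and WT 3. Sums called lower numbered 2 in the main fit, 0 without the trend, 1 under the block and 1, 1 and 2 without WT 1, WT 2 and WT 3. Both counts were smaller without either EID sample. Parents and sums called higher stayed at 1 each when a WT sample was left out, and both counts rose without EID 1. Each fit was counted afresh, so these counts can hold parents or sums not called in the main fit. Over 64 named genes and parents, 942 of 1018 refitted values kept direction and side of the threshold or had neither past it, 65 lost the call, 11 gained it and none reversed. Causes were not tested. With 2 Elmo2EID/EID samples the spread in that genotype is poorly known, and for copies that share most 50-base windows with a parent the level is limited by what unique reads can tell apart.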
